A study of Mus musculus with 6 samples.

Results

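The 6 genes described here carry cholesterol and plant sterols across the intestinal epithelium or store them there, and they were read in the duodenum of mice without the vitamin D receptor (VDR-null). They were chosen by name: Npc1l1, Abcg5, Abcg8, Abca1, Soat2 and Scarb1. A gene was read from the array probe set that the platform annotation pairs with its symbol alone, and 5 of the 6 genes had such a probe set, 1 each, among 22180 genes in the table. Soat2, which encodes the enzyme that esterifies cholesterol in enterocytes, was not analysed here. All 5 genes passed the filter on dim signals, as did 13174 genes in all.

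The samples were 3 VDR-null mice, set against 3 wild-type mice, all of the C57Bl/6 background and 10 weeks old, with 1 whole-transcript array (Affymetrix Mouse Gene 2.0 ST) of total duodenal RNA for each mouse. No treatment is named. The sources used here do not give sex, diet or the way the receptor gene was inactivated. Values are log2 signals on a scale in which a difference of 1 is a doubling.

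Cholesterol from food and bile enters enterocytes through NPC1L1, a sterol carrier of the brush border and the target of the drug ezetimibe. ABCG5 and ABCG8 are ATP-driven transporter subunits that work only as a pair and return plant sterols and surplus cholesterol to the gut lumen. SOAT2 esterifies what remains for packing into chylomicrons, ABCA1 passes cholesterol across the basolateral membrane to apolipoprotein A-I to form HDL, and SR-BI, the product of Scarb1, is an HDL receptor that is also present on the brush border. Abcg5, Abcg8 and Abca1 are known targets of the liver X receptors (LXR), which, like the vitamin D receptor, bind DNA together with RXR.

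Abcg5 and Abcg8 lie head to head on mouse chromosome 17, and the stretch between them is shown because both signals moved with each other from array to array. Other genes lay nearer in profile to Abcg8 than Abcg5, its 47th nearest, and a shared control was not tested. In RefSeq (GRCm38.p6) their start sites are 110 bases apart on opposite strands. The window shown, chr17:84682871-84683170 on the plus strand, runs from 250 bases before the Abcg8 start site to 50 bases from it on, and it holds the Abcg5 start site too. The window of Npc1l1, the member whose profile lay closest to that of Abcg8, is chr11:6230196-6230495 on the minus strand. Capitals mark AGATAA, the letters read by GATA factors, on either strand in the window of Abcg8, and AGGTCA, the single site read by VDR, RXR and LXR, on either strand in that of Npc1l1.
Abcg8 and Abcg5: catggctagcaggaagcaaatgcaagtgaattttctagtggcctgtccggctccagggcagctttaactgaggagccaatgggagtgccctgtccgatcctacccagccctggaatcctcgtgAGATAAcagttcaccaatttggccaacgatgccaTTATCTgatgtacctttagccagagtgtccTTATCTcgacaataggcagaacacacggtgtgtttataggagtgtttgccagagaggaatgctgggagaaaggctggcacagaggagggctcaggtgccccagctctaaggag
Npc1l1: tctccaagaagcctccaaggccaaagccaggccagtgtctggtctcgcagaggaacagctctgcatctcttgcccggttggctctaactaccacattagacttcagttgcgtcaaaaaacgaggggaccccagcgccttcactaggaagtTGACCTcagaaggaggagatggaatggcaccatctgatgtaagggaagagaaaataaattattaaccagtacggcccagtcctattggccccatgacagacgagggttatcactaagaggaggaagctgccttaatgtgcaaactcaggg

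The shared window held AGATAA at 3 places, while 11.2% of 32851 promoter windows of the same length held it at least at 1 place and 0.107% at 3 or more. Several motifs were searched in these windows, and such shares are no test of enrichment. AGGTCA was in the Npc1l1 window, as in 16.3% of all windows, and in none of the other windows of these genes. RefSeq windows were matched for 4 genes, 5 windows in all, with a further start site of Abcg8. The direct repeats of AGGTCA with 3 spacer bases (VDR) and with 4 (LXR), searched on both strands with up to 2 mismatches over their 12 fixed bases, were in none of the 5, against 3.06% and 3.02% of all windows. The single site is part of both repeats and of the LRH-1 motif. The motifs of HNF4 (CAAAGTCCA), LRH-1 (TCAAGGTCA) and SREBP (TCACCCCAC) were likewise in none, and each was in under 1% of all windows. The TATA box letters TATAAA were in 3 of the 5 windows (Abca1, Abcg5 and the shared window of Abcg8) and in 13.6% of all windows, and the matches of Abcg5 and Abcg8 are 1 and the same site. A match of letters is not a measured binding site, and a missing match says nothing of the factor. Repeats with more than 2 mismatches were not searched, so the search cannot say that these windows lack a VDR or LXR site.

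Vdr itself, the inactivated gene, read 10.99, 10.86 and 10.85 in VDR-null and 10.72, 10.95 and 11.11 in wild-type duodenum. The sources used here do not give the place of its probes or of the lesion, so this signal checks no label. The Vdr difference was -0.025 ± 0.12 (SE), and -0.17 without the replicate 1 array of each genotype. The arrays' medians lay between 5.15 and 5.19, and Pearson r between arrays, across all probe sets, lay between 0.975 and 0.991. Duodenal and small-intestinal genes were bright on all 6 arrays (Pdx1 7.70 to 8.28, Fabp2 10.56 to 12.44), while the ileal genes Fabp6 and Slc10a2 and the hepatic genes Alb and Cyp7a1 stayed below the median of all values, 5.17. Other genes of those lists were bright: of 7 ileal and colonic genes with a probe set, Slc51a (7.57 to 9.96), Guca2a (9.56 to 10.05) and Car4 (9.41 to 10.85) passed the filter, and of 7 hepatic genes Ttr (7.82 to 8.43) did. All 3 tested pancreatic acinar genes were higher in VDR-null, with their mean at 9.81 on VDR-null replicate 3 and between 5.87 and 7.43 on the other arrays. VDR-null replicate 1 and wild-type replicate 1 stood at opposite ends of the first principal component, which held 62.2% of the variance, and the differences of the 5 genes, their pairs shown, the lists around them and the named partners are therefore also given without both.

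The signal of Npc1l1 was higher on average in VDR-null duodenum, but it varied within each genotype by about as much as between them. Npc1l1 (probe set 17260308) read 11.72, 11.00 and 10.54 in VDR-null replicates 1 to 3, against 9.39, 10.82 and 10.58 in wild-type replicates 1 to 3. VDR-null replicate 1 was the highest array and wild-type replicate 1 the lowest, 1.19 below the next wild-type array, and the other 4 arrays of the 2 genotypes overlapped. The means were 11.09 ± 0.60 in VDR-null and 10.26 ± 0.76 in wild-type duodenum (SD, n = 3 each). The log2 difference was 0.82 ± 0.43 (SE), a 1.77-fold higher signal with a 95% confidence interval from 0.864-fold to 3.61-fold, and did not pass the test over all genes (limma adjusted p = 0.683).

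Both subunits of the sterol exporter showed the same order of arrays as Npc1l1, and both were higher on average in VDR-null duodenum without passing the test. Abcg5 (probe set 17347729) read 9.59, 9.36 and 8.93 in VDR-null replicates 1 to 3, against 7.79, 9.35 and 8.99 in wild-type replicates 1 to 3. Its wild-type replicate 1 lay 1.20 below the next wild-type array, and wild-type replicates 2 and 3 lay inside the range of the VDR-null arrays. The log2 difference was 0.58 ± 0.40 (SE; 95% confidence interval -0.36 to 1.52; limma adjusted p = 0.684). Abcg8 (probe set 17340099) read 9.51, 8.94 and 8.39 in VDR-null duodenum, against 7.11, 8.92 and 8.43 in wild-type duodenum. It had the widest range of the 5 genes, 2.40 log2 units or 5.26-fold between VDR-null replicate 1 and wild-type replicate 1. Its difference was 0.79 ± 0.49 (SE; 95% confidence interval -0.36 to 1.95; limma adjusted p = 0.683), a 1.73-fold higher signal in VDR-null.

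Scarb1, the gene of the HDL receptor SR-BI, followed the same order of highest and lowest array over a smaller range. Its probe set (17452957) read 8.94, 8.66 and 8.19 in VDR-null replicates 1 to 3, against 7.83, 8.68 and 8.58 in wild-type replicates 1 to 3. VDR-null replicate 3 lay below wild-type replicates 2 and 3. The means were 8.60 ± 0.38 in VDR-null and 8.36 ± 0.46 in wild-type duodenum (SD, n = 3 each), a log2 difference of 0.24 ± 0.27 (SE; limma adjusted p = 0.769).

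Abca1 stood apart from the other 4 genes, with a nearly flat signal. It read 7.41, 7.30 and 7.53 in VDR-null replicates 1 to 3, against 7.61, 7.44 and 7.45 in wild-type replicates 1 to 3 (probe set 17425301). Its whole range was 0.30, and wild-type replicate 1, the lowest array for the other 4 genes, was its highest. The log2 difference was -0.083 ± 0.10 (SE; limma adjusted p = 0.782). The 95% confidence interval, 0.801-fold to 1.11-fold, did not reach a 1.5-fold difference in either direction.

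**Figure D1:**
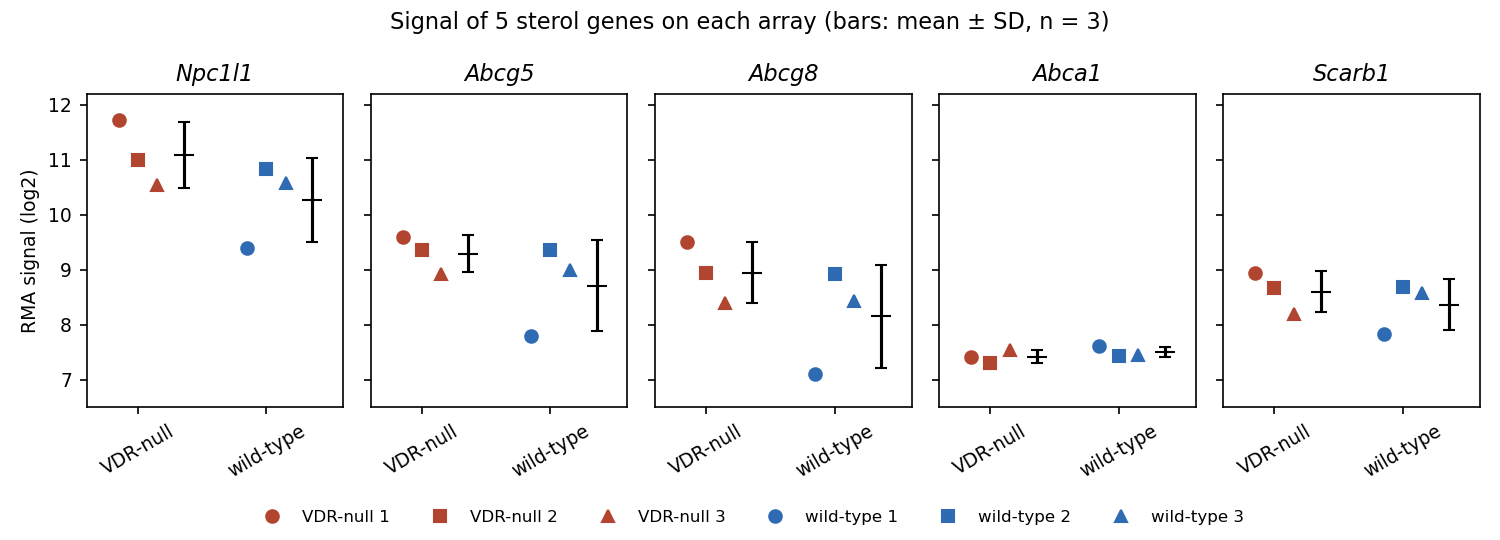
RMA signal (log2) of the 5 genes on each array, with VDR-null left of wild-type in each panel; marks give the replicate number and bars the mean ± SD (n = 3). In Npc1l1, Abcg5, Abcg8 and Scarb1 VDR-null replicate 1 is the highest and wild-type replicate 1 the lowest array, while Abca1 spans 0.30.

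Of the 5 genes, 0 passed an adjusted p of 0.05 in limma, where 0.00% of all genes tested did, and 0 had an unadjusted p under 0.05, where 5.23% did (2.20% higher and 3.03% lower in VDR-null). In 0 of the 5 the genotypes' arrays were free of overlap, against 11.1% of all genes (4.87% higher and 6.22% lower in VDR-null). The difference was above 0 in 4 of the 5 and in 44.0% of all genes, and the median difference of the 5 was 0.58, against -0.026 over all genes. Spread within a genotype was wide in 4 genes: 98.7% of tested genes had a smaller pooled SD than Abcg8 (0.77), 98.3% than Npc1l1 (0.69), 97.8% than Abcg5 (0.63) and 94.4% than Scarb1 (0.42). Only 26.4% had a smaller one than Abca1 (0.10). In these samples of whole tissue, fewer cells of a type and less RNA per cell cannot be told apart.

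The 4 wide-ranging genes followed the brush border genes, which mark absorptive enterocytes, from array to array. Relative to their mean over the 6 arrays, 17 brush border genes averaged 0.83, 0.34 and -0.11 in VDR-null replicates 1 to 3, against -1.07, 0.095 and -0.083 in wild-type replicates 1 to 3. Abcg8, on the same relative scale, stood at 0.96, 0.39 and -0.16 in VDR-null, against -1.44, 0.37 and -0.12 in wild-type duodenum. Npc1l1 stood at 1.05, 0.32 and -0.14 in VDR-null, against -1.28, 0.14 and -0.093 in wild-type duodenum. The brush border genes themselves were higher in VDR-null in 17 of 17 cases, with a median difference of 0.63 and 0 past the limma threshold (3 at an unadjusted p under 0.05, all 3 higher, against 2.20% of all genes in that direction). In 2 of the 17 the arrays did not overlap, against 4.87% of all genes in that direction. Without both replicate 1 arrays 13 of the 17 were higher, with a median difference of 0.12.

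In a fit with genotype and the brush border mean together, Abcg8 changed by 1.37 ± 0.11 (SE) for each log2 unit of that mean, Npc1l1 by 1.23 ± 0.086, Abcg5 by 1.08 ± 0.14, Scarb1 by 0.75 ± 0.087 and Abca1 by -0.14 ± 0.094. The genotype difference left in that fit was -0.053 for Npc1l1, -0.19 for Abcg5, -0.18 for Abcg8 and 0.017 for Abca1, so that the sign turned in all 4. The sign of Scarb1 turned there too, to -0.30 ± 0.10 (SE), with an unadjusted limma p of 0.0228 and an adjusted p of 0.9998. In that fit 459 of 13174 genes had an unadjusted limma p under 0.05. The other members had unadjusted limma p from 0.21 (Abcg8) to 0.88 (Abca1). The brush border mean itself differs between the genotypes on the same arrays, so this fit cannot separate it from genotype. Its part in the differences was not tested.

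**Figure D2:**
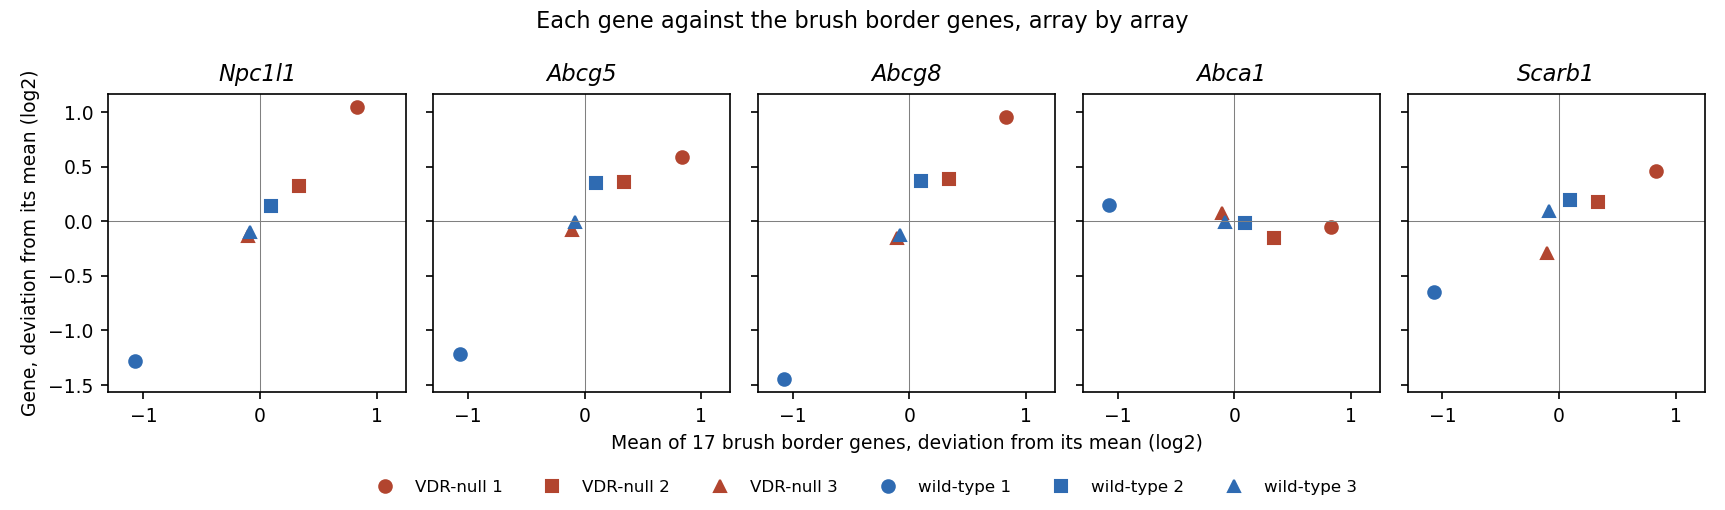
Deviation of each gene from its own mean over the 6 arrays (vertical axis, log2) against that of the mean of 17 brush border genes (horizontal axis, log2), VDR-null in red and wild-type in blue. Npc1l1, Abcg5, Abcg8 and Scarb1 climb along the brush border axis, with VDR-null replicate 1 at 0.83 and wild-type replicate 1 at -1.07 on it, and Abca1 stays between -0.15 and 0.15.

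Leaving out the arrays at the ends took away most of the difference of Npc1l1, Abcg5 and Abcg8. Those were the highest VDR-null and the lowest wild-type array of these genes and of Scarb1. A lower difference without them was therefore fixed in advance, and only its size was open. Npc1l1 differed by 0.39 without wild-type replicate 1, by 0.50 without VDR-null replicate 1 and by 0.066 without both. Abcg5 differed by 0.12, 0.43 and -0.028 in these fits, and Abcg8 by 0.27, 0.51 and -0.0089. Scarb1 differed by -0.028, 0.066 and -0.20. Abca1 differed by -0.029, -0.079 and -0.025. VDR-null replicate 3 was the lowest VDR-null array of Npc1l1, Abcg5, Abcg8 and Scarb1, and wild-type replicate 2 their highest wild-type array. Leaving out either had to raise their differences. Without VDR-null replicate 3 these were 1.10, 0.76, 1.07 and 0.44 in that order. Without wild-type replicate 2 they were 1.10, 0.90, 1.18 and 0.39. None passed the limma threshold in any of these fits.

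**Figure D3:**
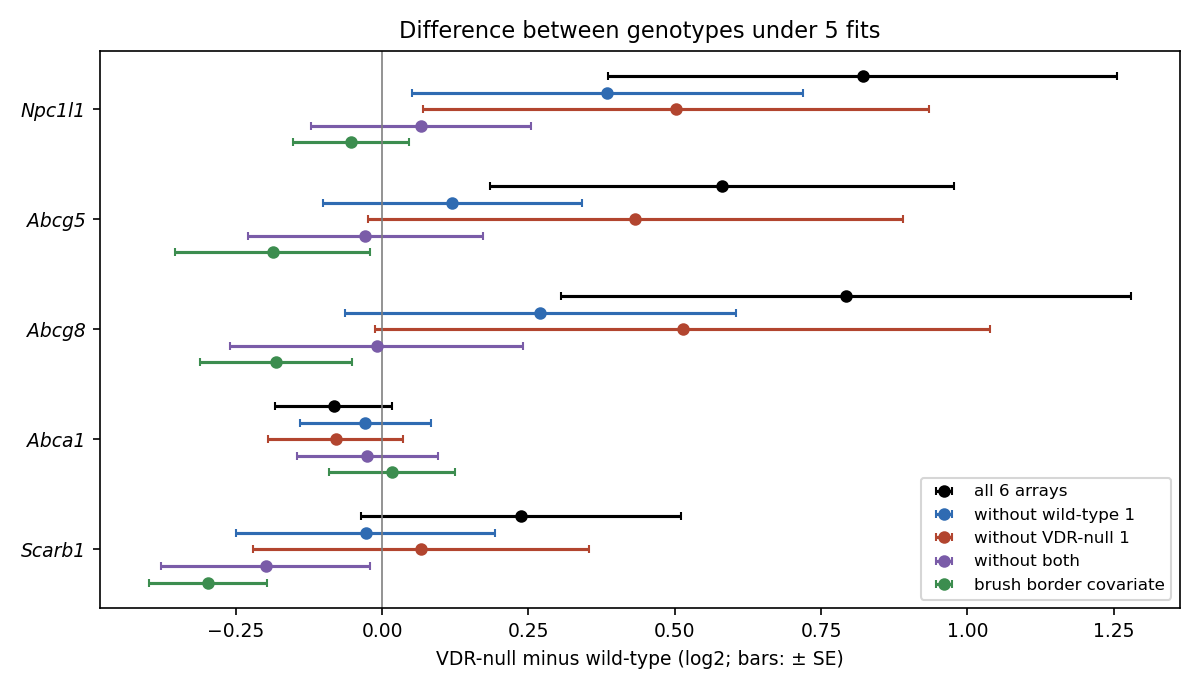
VDR-null minus wild-type difference (horizontal axis, log2, bars ± SE from limma) of the 5 genes in the fit of all 6 arrays, in 3 fits without replicate 1 arrays and in the fit that also holds the brush border mean. Npc1l1 moves from 0.82 with all arrays to 0.066 without both replicate 1 arrays, and Scarb1 lies below 0 in 3 of the 5 fits.

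Whether members moved unequally was compared within arrays, over the 10 pairs of the 5 genes. The test was a two-sided exact permutation of the 6 arrays, whose smallest possible p is 0.1. Npc1l1 was higher relative to Scarb1 on every VDR-null array than on any wild-type array. Their relative difference, with both genes set to their own means, was 0.59, 0.14 and 0.15 in VDR-null replicates 1 to 3, against -0.64, -0.053 and -0.19 in wild-type replicates 1 to 3. The mean difference between the genotypes was 0.58 (exact p = 0.1, adjusted p = 0.4 over the 10 pairs), and 0.27 without both replicate 1 arrays. Npc1l1 relative to Abcg5 was 0.46, -0.038 and -0.062 in VDR-null, against -0.071, -0.20 and -0.085 in wild-type duodenum, also without overlap (mean difference 0.24, exact p = 0.1, adjusted p = 0.4; 0.095 without both replicate 1 arrays). The subunits Abcg5 and Abcg8 overlapped between the genotypes, with Abcg5 minus Abcg8 differing by -0.21 (exact p = 0.2, adjusted p = 0.4; -0.019 without both replicate 1 arrays). Npc1l1 and Abcg8 differed in their response by 0.029 (exact p = 0.9; 0.075 without both). Only 2 of the 10 pairs reached the smallest p possible, and none passed after adjustment.

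Likeness to other genes was measured as the root mean square difference of profiles over the 6 arrays, each gene set to its own mean, among 12218 tested genes with a name of their own. Npc1l1 lay nearest to Cyp4f14, a fatty acid hydroxylase (0.059 log2), Lrrc19 (0.079) and the creatine transporter Slc6a8 (0.082), and Abcg8 was its 24th nearest gene (0.12). Abcg5 lay nearest to the carotenoid-cleaving enzyme Bco2 (0.064), Papss2, which makes the sulfate donor PAPS (0.081), and the cytokine gene Il18 (0.096). Abcg8 lay nearest to Lrrc19 (0.084), the alanine aminotransferase Gpt (0.085) and the sulfotransferase Sult1b1 (0.088). From Abcg8, its partner Abcg5 was the 47th nearest (0.19), and from Abcg5, Abcg8 was the 56th. Scarb1 lay nearest to Zfp36 (0.064), whose product destabilises mRNAs, Kifc3 (0.072) and Gstt1 (0.076). Abca1, being nearly flat, lay nearest to other flat genes, Smc1a (0.013), Fbxo30 (0.017) and Drosha (0.021). All profiles come from the same 6 arrays, and the distances name no shared control.

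Around the 5 genes, 69 genes of uptake partners, lipoprotein handling, LXR, SREBP2 and enterocyte transcription factors were listed, of which 59 were tested. Of these, 37 were higher and 22 lower in VDR-null, 0 passed the limma threshold (0.00% of all genes), and 2 had an unadjusted p under 0.05 (5.23% of all genes). Both were higher in VDR-null, in which direction 2.20% of all genes had such a p.

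Partners of sterol uptake and trafficking were spread around a small positive median, 13 higher and 7 lower of 20 (median difference 0.13, and 0.0087 without both replicate 1 arrays). Anxa2, which encodes the membrane-binding protein annexin A2, read 10.52, 10.31 and 10.00 in VDR-null, against 9.55, 10.11 and 9.79 in wild-type duodenum, a difference of 0.46 ± 0.19 (SE; limma adjusted p = 0.683), and of 0.21 without both replicate 1 arrays. Cav1, which encodes the caveolar coat protein, differed by -0.27 ± 0.12 (-0.17 without both). Beside it, 8 endothelial genes had a median of -0.34, all 8 lower, and 10 smooth muscle genes -0.40, all 10 lower (-0.15 and -0.30 without both). The arrays did not overlap in 4 of the 8 and 6 of the 10, against 6.22% of all genes in that direction. An unadjusted limma p under 0.05 was reached by 2 of the 8 and 6 of the 10, against 3.03%. None of them passed the limma threshold, and their part in the Cav1 value was not tested. Npc1, the lysosomal relative of Npc1l1, differed by 0.089 ± 0.14 (0.11 without both) and Lima1, whose product helps NPC1L1 return to the cell surface, by 0.13 ± 0.13 (-0.055 without both). Gramd1b and Gramd1c encode Aster proteins, which carry cholesterol from the plasma membrane to the endoplasmic reticulum, and were singled out after their values were seen. Gramd1b differed by 0.73 ± 0.36 and Gramd1c by 0.54 ± 0.31, with 0.14 and 0.057 without both replicate 1 arrays.

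Lipoprotein and HDL genes had a median difference of 0.48, with 9 of 12 higher, and -0.023 with 5 of 12 higher without both replicate 1 arrays. Apob, the chylomicron scaffold, differed by 0.62 ± 0.49 (SE), Mttp, which loads lipid onto it, by 0.54 ± 0.32, and Dgat1, a triglyceride-forming enzyme, by 0.41 ± 0.21. Without both replicate 1 arrays Apob differed by -0.18, Mttp by 0.033 and Dgat1 by 0.094. Apoa1, whose product takes up the cholesterol exported by ABCA1, read 12.08, 11.53 and 11.27 in VDR-null, against 9.97, 11.36 and 11.29 in wild-type duodenum, a difference of 0.76 ± 0.40 (SE), and of 0.081 without both. Its order of arrays was that of Npc1l1 at both ends, and not that of Abca1.

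LXR and its other targets showed no common direction, with 4 of 10 higher and a median difference of -0.018, and 4 of 10 and -0.013 without both replicate 1 arrays. Nr1h3, which encodes LXR alpha, differed by 0.28 ± 0.16 (SE), Abcg1, a cholesterol exporter, by -0.022 ± 0.11 and Mylip, a ubiquitin ligase induced by LXR, by -0.077 ± 0.11. Smpdl3a, a phosphodiesterase induced by LXR, read 10.38, 10.32 and 10.01 in VDR-null, against 9.59, 10.09 and 9.88 in wild-type duodenum (0.38 ± 0.16; limma adjusted p = 0.683), and Acaca, the acetyl-CoA carboxylase of fatty acid synthesis, differed by -0.21 ± 0.11. Without both replicate 1 arrays Nr1h3 differed by 0.10, Abcg1 by 0.055, Mylip by -0.0024, Smpdl3a by 0.18 and Acaca by -0.0997. With all arrays the 10 genes lay between -0.21 and 0.38, below Abcg5 and Abcg8, but without both Smpdl3a and Nr1h3 were among those above Abcg5 (-0.028) and Abcg8 (-0.0089); the difference between them was not tested.

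SREBP2 and its partners, which sense cell cholesterol, lay close to 0. The 6 tested genes ranged from -0.033 to 0.098, with 3 higher and 3 lower (median 0.0029, and -0.036 with 3 higher without both replicate 1 arrays). Srebf2 itself differed by 0.0065 ± 0.10 (SE), Sqle, an enzyme of cholesterol synthesis, by 0.098 ± 0.18 and Insig2, which holds SREBP2 back, by -0.033 ± 0.14. Without both they differed by 0.021, 0.24 and -0.093. Among 11 enterocyte transcription factors 8 were higher (median 0.12), with Hnf4g at 0.37 ± 0.25 and the lipid-sensing receptor Ppard at 0.22 ± 0.14. Without both replicate 1 arrays 5 of the 11 were higher (median -0.0075), with Hnf4g at 0.027 and Ppard at 0.020.

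Macrophage genes, relevant because Abca1 and Scarb1 are also expressed in macrophages, had 3 of 11 higher and a median difference of -0.036, but 10 of 11 and 0.15 without VDR-null replicate 1 and 10 of 11 and 0.20 without both replicate 1 arrays. Their mean level was 7.20, 7.71 and 7.60 in VDR-null replicates 1 to 3, against 7.64, 7.76 and 7.17 in wild-type replicates 1 to 3, an order that neither Abca1 nor Scarb1 followed. Crypt and division genes ran opposite to the brush border, with 0 of 11 higher and a median of -0.33, and with 2 of 11 higher and a median of -0.087 without both replicate 1 arrays.

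**Figure D4:**
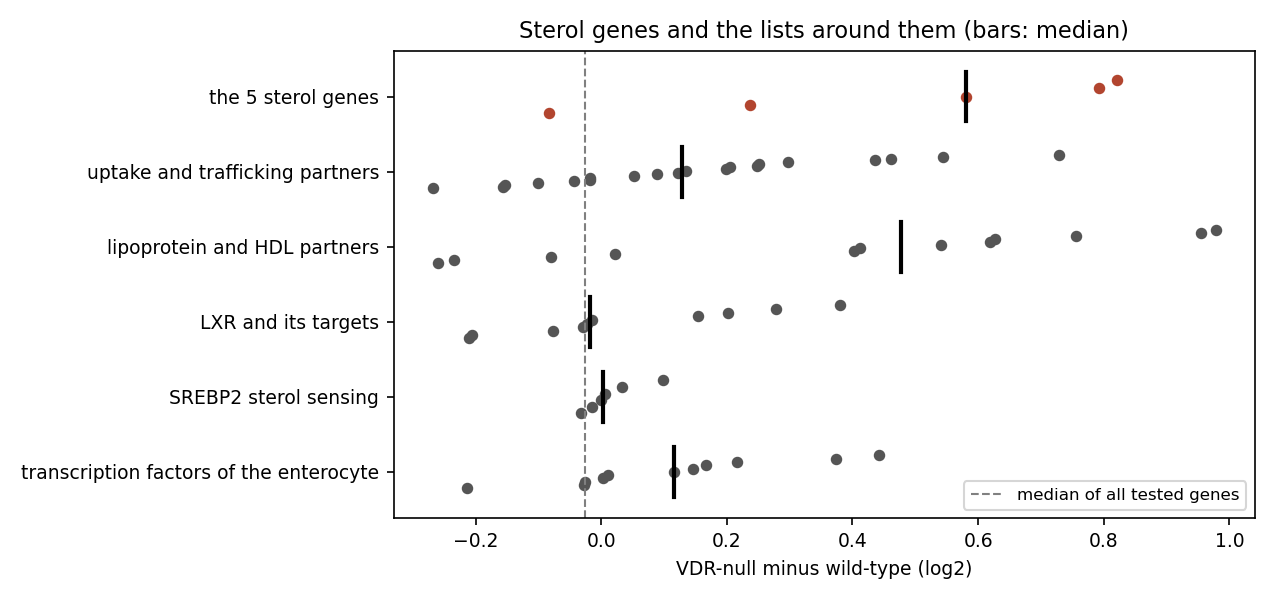
VDR-null minus wild-type difference (horizontal axis, log2) of the 5 sterol genes and of each tested gene in the 5 lists around them; bars are medians and the dashed line is the median of all tested genes, -0.026. Lipoprotein and HDL genes have a median of 0.48, while LXR and SREBP2 genes centre near 0.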

How the data were processed

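Total RNA from the duodenum of 3 VDR-null and 3 wild-type mice was hybridised to Affymetrix Mouse Gene 2.0 ST arrays. The deposited values are log2 signals for each probe set, which the authors made by RMA; the submitters' processing notes name Affymetrix Expression Console without a version. The sources used here do not say if all arrays entered a single normalization. The number of arrays limits the precision.

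Of 41345 probe sets, 23521 had 1 gene symbol in the platform annotation, 1814 had several and 16010 none. Each of 22180 genes was read from its probe set of highest mean, and it was tested where 3 or more arrays exceeded 5.17, the median of the table. The genotype difference was fitted by lmFit and eBayes of limma 3.58.1 (R 4.3.3) without covariates, and two-sided p-values were adjusted over 13174 genes by Benjamini-Hochberg, at 0.05. The procedure was tested on simulated data. Pairs of members were compared by exact permutation tests in scipy 1.17.1. Promoter windows are from RefSeq tables for GRCm38.p6. The platform annotation names no build, so no other coordinates are given.

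The members, lists and alternatives were chosen with earlier results of these data known. Named genes are the members, partners picked by function, up to 2 genes of each list around the members with the smallest p, and the 3 nearest profiles of each member. The partners Soat1, Nr1h2 and Pdzk1 were not analysed here. The alternatives changed the filter on dim genes, the normalization, the prior of the spread, the weights of arrays, the choice of probe set or the covariates, added a replicate block, or left arrays out.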

Additional observations from a re-analysis of the deposited data

How the results depend on the processing

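In all 21 alternatives none of the 5 genes passed the threshold, with limma adjusted p between 0.293 and 1.00. The differences ran from -0.053 to 1.10 for Npc1l1, -0.19 to 0.90 for Abcg5, -0.18 to 1.18 for Abcg8, -0.14 to 0.017 for Abca1 and -0.30 to 0.44 for Scarb1. The count of genes past the threshold was 0 in each of them, while the count at an unadjusted p under 0.05, 689 in the reported fit, lay between 137 (smooth muscle mean in the fit) and 2718 (array weights). Other normalizations and array weights turned the sign of none of the 5. Other filters, priors and probe set choices could not change their differences, as each gene had a single probe set, and so did not test the sign. The cause of the changes below was not tested. With the brush border mean in the fit the values were -0.053 for Npc1l1, -0.19 for Abcg5, -0.18 for Abcg8, 0.017 for Abca1 and -0.30 for Scarb1, and, of partners that turned sign, 0.070 for Abcg1, 0.0044 for Mylip, -0.092 for Lima1, -0.094 for Mttp, -0.37 for Apob, -0.024 for Apoa1, -0.0052 for Ppard and -0.080 for Hnf4g. With the smooth muscle mean they were 0.32 for Npc1l1, -0.012 for Abcg5, 0.064 for Abcg8, -0.034 for Abca1, -0.039 for Scarb1, -0.21 for Npc1, -0.018 for Lima1, -0.14 for Srebf2 and -0.088 for Hnf4g. Without both replicate 1 arrays they were -0.028 for Abcg5, -0.0089 for Abcg8, -0.20 for Scarb1, 0.055 for Abcg1, -0.055 for Lima1 and -0.18 for Apob. The pairs were compared without both only after the data were seen; there the difference in response turned to -0.0031 for Abcg5 minus Abca1 and to 0.17 for Abca1 minus Scarb1. Abcg1 was 0.028 with cyclic loess and 0.038 with array weights, Insig2 0.0071 and 0.084, and Srebf2 -0.048 after a second quantile normalization. With single arrays left out, the ranges were 0.39 to 1.10 for Npc1l1, 0.12 to 0.90 for Abcg5, 0.27 to 1.18 for Abcg8, -0.14 to -0.027 for Abca1 and -0.028 to 0.44 for Scarb1. Ranges that crossed 0 among partners were -0.050 to 0.20 for Npc1, -0.13 to 0.060 for Abcg1, -0.065 to 0.060 for Srebf2, -0.13 to 0.066 for Vdr, -0.086 to 0.28 for Sqle and -0.11 to 0.10 for Insig2.

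Deviations from the group means of same-numbered arrays had correlations across genes of -0.62, 0.19 and -0.26. With 3 arrays for each genotype these values cannot say whether the replicate numbers in the titles pair the arrays. Each replicate number holds an array of each genotype, so the replicate block could change only the SE and p, not the differences. These stayed at 0.82, 0.58, 0.79, -0.083 and 0.24 (Npc1l1, Abcg5, Abcg8, Abca1 and Scarb1). None passed the threshold with the block, and 338 genes had an unadjusted limma p under 0.05, against 689 without it. With 3 arrays for each genotype, intervals as wide as those of Npc1l1, Abcg5 and Abcg8 hold both no difference and more than a 2-fold one.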
